A study of Mus musculus with 18 samples.

Results

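The genes described here encode the proteasome: every gene of the deposited table whose symbol is Psm followed by a letter from a to g and a number, without the processed copies marked ps. The rule returned 49 of the 56691 genes in the table and used no expression value. They comprise 8 alpha subunits of the 20S core particle, 7 constitutive and 4 inducible or thymic beta subunits, 6 ATPases and 11 non-ATPase subunits of the 19S regulatory particle, 3 chaperones of its base, 6 genes of other activators and an inhibitor, and 4 chaperones of the core particle.

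The proteasome is the barrel-shaped protease that degrades proteins marked with ubiquitin. Its core particle stacks outer rings of alpha subunits, which form the gate, on inner rings of beta subunits, of which Psmb5, Psmb6 and Psmb7 carry the active sites, and the regulatory particle caps the barrel, binds ubiquitin chains, removes them and unfolds the substrate. Interferon signalling is known to induce Psmb8, Psmb9 and Psmb10, which replace the constitutive active subunits in the immunoproteasome. The transcription factors NRF1 and NRF2 are known to drive subunit genes through antioxidant response elements. The liver is a tissue with a high turnover of proteins.

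Liver RNA of wild-type C57BL/6 mice was sequenced in 18 libraries, 6 for each of 3 groups. Sham mice were anaesthetised and had a laparotomy without clipping. In the IR (ischemia and reperfusion) group, clips on the portal triad stopped the blood flow to the median and left lobes, about 70% of the liver, for 1 h, and reperfusion lasted 6 h. IR-Ori mice went through this procedure too and received oridonin, a plant diterpenoid, and the sources used here name no dose, route or time for it. All mice had been housed for 7 days before the experiment, and no group received oridonin without ischemia, so the compound was not measured apart from the injury. The sources used here give neither age nor sex. Nothing in the labels says that each library is a different mouse, so p-values measure only how far these libraries spread, which may be technical.

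Promoter windows from RefSeq (build GRCm38.p6, 250 bases before to 50 after a gene's start) matched 41 of the 49 genes by symbol. The antioxidant response element core TGACNNNGC, searched on both strands, lay in 6 of the 41 windows (14.6%), against 14% of the windows of 27025 genes. It is shown because it is the element through which NRF1 is known to act on subunit genes. Each line gives the match in capitals with up to 8 bases on each side, read in the direction of the motif, whether or not that is the direction of the gene.

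Psmb5 (chr14:54618026-54618050): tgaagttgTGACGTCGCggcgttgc

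Psmb6 (chr11:70525340-70525364): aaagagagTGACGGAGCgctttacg

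Psmc6 (chr14:45329589-45329613): gcaatgccTGACTTAGCtactggct

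Psmd12 (chr11:107479278-107479297): ggcaaatgTGACACAGCaga

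Psmd9 (chr5:123228151-123228175): ctagccggTGACCCCGCccacttcc

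Psme4 (chr11:30771760-30771784): tcttctggTGACGCTGCagccgcag

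The interferon-stimulated response element core (GAAA, any 2 bases, GAAA) lay in 5 of the 41 windows (12.2%), against 3.99% of all windows. One of the 5 belongs to Psme1, an interferon-induced activator, and none to Psmb8, Psmb9 or Psmb10, and the match of Psme1 and that of Psmb3, a structural beta subunit, are printed with capitals for the core. The heat shock element core (GAA, any 2 bases, TTC, any 2 bases, GAA) lay in 0 of the 41 windows, against 0.662% of all, and the CCAAT box CCAAT in 14 (34.1%), against 41.1%. These matches describe the letters of the windows and say nothing of binding.

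Psme1 (chr14:55578495-55578520): cgggaaggGAAAGCGAAAgcacagct

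Psmb3 (chr11:97703263-97703288): ggaaagcgGAAAGTGAAAagtcactg

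The 250 bases before the start of Psmd8, Psmb10 and Psmd14 are given because these were the matched members with the smallest p-values between IR and sham. Psmd8 (minus strand) and Psmb10 (minus strand) held none of the 4 motifs. Psmd14 (plus strand) held a CCAAT box on the opposite strand, in capitals, and a further pair just after its start.

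Psmd8 (chr7:29180674-29180923): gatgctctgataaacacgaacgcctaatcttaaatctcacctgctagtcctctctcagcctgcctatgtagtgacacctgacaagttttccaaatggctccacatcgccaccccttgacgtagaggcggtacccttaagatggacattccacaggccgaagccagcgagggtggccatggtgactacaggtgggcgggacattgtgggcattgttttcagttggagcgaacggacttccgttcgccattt

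Psmb10 (chr8:105938393-105938642): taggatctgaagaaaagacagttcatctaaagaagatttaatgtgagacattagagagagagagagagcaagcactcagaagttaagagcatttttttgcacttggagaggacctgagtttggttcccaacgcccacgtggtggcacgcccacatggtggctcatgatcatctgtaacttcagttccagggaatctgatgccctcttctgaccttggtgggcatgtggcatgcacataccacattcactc

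Psmd14 (chr2:61711444-61711693): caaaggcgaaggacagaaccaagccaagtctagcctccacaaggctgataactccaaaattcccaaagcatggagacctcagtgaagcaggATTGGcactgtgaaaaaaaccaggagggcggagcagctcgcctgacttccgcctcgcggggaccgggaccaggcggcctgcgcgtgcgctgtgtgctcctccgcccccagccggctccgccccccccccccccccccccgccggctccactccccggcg

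Libraries held 12449529 to 19798188 counts. The share of counts from mitochondrially encoded genes ranged over 10.3 to 42.8% (sham), 6.52 to 42.9% (IR) and 14.1 to 32.0% (IR-Ori). Its medians were 19.7% (sham), 17.0% (IR) and 29.2% (IR-Ori), so the groups were not balanced in it. A share under 15% was found in 7 libraries: sham 1, 3 and 4, IR 4, 5 and 6, and IR-Ori 5. Of the nuclear counts, proteasome genes made up 0.335 to 0.466% (sham), 0.406 to 0.685% (IR) and 0.312 to 0.440% (IR-Ori). All 7 hepatocyte markers (Alb, Apoa1, Ttr, Serpina1c, Cps1, Hnf4a and Asgr1) were detected, and their summed level was 14528 to 46924 in sham. Levels below are normalised FPKM, FPKM recomputed with library totals scaled by edgeR's TMM factors. They divide counts by the deposited exonic gene size, which was 899 bases for Psmb5 and 3381 for Psmb8. Levels of different genes therefore depend on this size too, and their order describes this scale only.

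In sham liver the constitutive particle was expressed over a wide range. Psmb5, the subunit with chymotrypsin-like activity, had the highest median level, 87.7 (37.2 to 118 over 6 libraries). The alpha subunit gene Psma4 followed at 81.1 (63.2 to 94.1) and the ATPase gene Psmc5 at 76.2 (65.3 to 96.6), and the ranges of all 3 overlap, so their order is not set beyond the spread. The third catalytic gene, Psmb7 (trypsin-like), stood at 20.1 (2.67 to 31.5), and Psmb6 (caspase-like) at 64.6 (44.7 to 85.5).

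The medians of the constitutive subunits reached down to 8.85 for the lid gene Psmd13. Of the inducible subunits and the assembly factors, Psmb10, Psmg1 and Psmg2 had medians within this range, and the others lay below it. The median sham levels were 6.63 for Psmb8, 2.22 for Psmb9 and 14.4 for Psmb10. The chaperones of the base had medians of 2.34 (Psmd5), 3.93 (Psmd9) and 4.47 (Psmd10), and the core chaperones, which build the alpha ring, 13.3 (Psmg1), 8.87 (Psmg2), 3.93 (Psmg3) and 8.30 (Psmg4). Outside the testis and thymus, where they are known to act, Psma8 and Psmb11 were at the edge of detection: Psma8 had 1 to 17 counts per library, with a mean deposited FPKM of 0.15 (sham), 0.23 (IR) and 0.22 (IR-Ori), and Psmb11 had 0 counts in 4 of 6 sham, 5 of 6 IR and 5 of 6 IR-Ori libraries and at most 8 in the others. Both failed the filter on low counts, which left 47 genes tested.

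**Figure D1:**
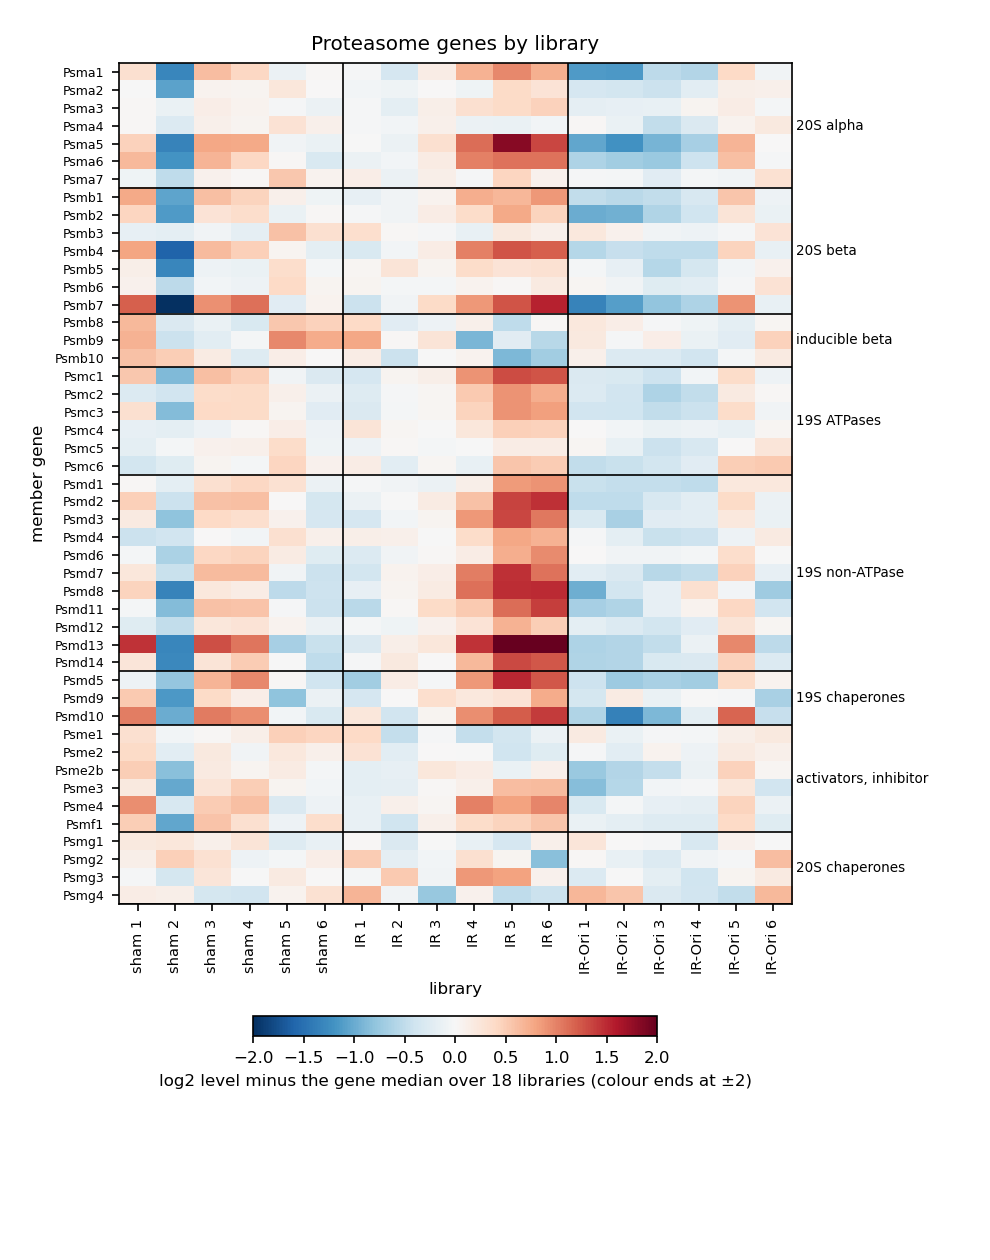
Heatmap of the 47 tested proteasome genes (rows, grouped by role) in the 18 libraries (columns). Colour is the log2 level minus the gene's median over the 18 libraries, with colours ending at 2 on either side. IR 5 and IR 6 are high over most 20S and 19S rows, sham 2 is low over most of them, and the inducible beta rows run differently.

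Single libraries stood out within the groups. As the heatmap of genes by library shows, the highest library was IR 5 for 16 of the 47 genes and IR 6 for 13, and the lowest was sham 2 for 28. For the 11 non-ATPase genes of the regulatory particle, the median log2 deviation from the gene's own median was -0.17, 0.02 and 0.08 in IR 1, 2 and 3, and 0.58, 1.32 and 1.09 in IR 4, 5 and 6. In sham it ran from -0.63 (sham 2) to 0.44 (sham 4), and in IR-Ori from -0.47 (IR-Ori 2) to 0.35 (IR-Ori 5). The high IR libraries are those with a mitochondrial share under 15%, and sham 2 had a share of 42.8%, but IR 1, with the largest share, 42.9%, stood at -0.17.

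The comparison of IR with sham asks how ischemia and reperfusion affect the liver. None of the 47 proteasome genes passed in either direction (edgeR quasi-likelihood test, Benjamini-Hochberg adjusted p under 0.05), where 5.52% of all 14595 genes tested were higher and 2.36% lower. At an unadjusted p under 0.05, 6 genes were higher (13.6% of all genes tested) and 2 lower (9.87%). The 6 became 1 without sham 2, sham 6 or IR 5, and 2 without sham 1 or IR 6. They became 3 without sham 5 or IR 4, and 8 without IR 1. The 2 lower genes became 4 without IR 1, and 0 without IR 2 or IR 5. Without sham 1, sham 5, sham 6, IR 4 or IR 6, 1 gene was lower. DESeq2 called 2 higher, Psmd8 and the ATPase gene Psmc4, and 0 lower, against 7.63% and 4.83% of all genes, and limma on log2(FPKM + 1) called 0, against 3.34% and 1.77%. No gene had groups that did not overlap, where 2.52% of all genes did so upward and 1.37% downward.

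The sign of the fold change, with no test between roles, differed by class. The log2 fold change was above 0 for 35 of 47 genes, with a median of 0.25, beside 50.2% above 0, 49.8% below and a median of 0.00 over all genes tested. The 31 tested constitutive 20S and 19S subunit genes varied together within groups (median correlation 0.70 over 465 pairs, 446 above 0). Their signs are therefore not independent observations. All 11 non-ATPase genes of the regulatory particle (median 0.56), all 7 constitutive beta genes (median 0.25), 6 of 7 alpha genes (median 0.20), 5 of 6 ATPase genes (median 0.31) and all 3 chaperones of the base (median 0.29) were above 0. The activators and the inhibitor split into 2 above and 4 below 0 (median -0.03). The 3 inducible beta genes were all below 0 (median -0.38, 1 at an unadjusted p under 0.05), as were 3 of the 4 core chaperone genes (median -0.12). In bulk tissue, fewer cells of a type and less RNA per cell cannot be told apart.

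The balance of signs depended on which libraries were compared. With IR 4, 5 and 6 left out, a choice made after seeing the data, 13 of 48 tested genes were above 0 and 35 below, with a median of -0.11 (all genes tested: 47.6% above 0, median -0.03). That fit sets IR libraries with larger mitochondrial shares against all 6 sham libraries. Within libraries under 15% (3 IR, 3 sham), 37 of 48 genes were above 0, with a median of 0.30. By edgeR 1 was called higher and 0 lower (5.87% and 3.51% of all genes), with 8 higher and 1 lower at an unadjusted p under 0.05. Within libraries at or over 15% (3 IR, 3 sham), 33 of 48 were above 0, with a median of 0.14. By edgeR 0 were called (0.0943% and 0.0% of all genes), with 4 higher and 0 lower at an unadjusted p under 0.05. Without sham 2, 29 of 48 genes were above 0 and the median was 0.09. With the mitochondrial share as a covariate the median was 0.21, with 2 genes called higher and 0 lower (edgeR, 7.93% and 4.92% of all genes). That fit gave 13 higher and 2 lower at an unadjusted p under 0.05.

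**Figure D2:**
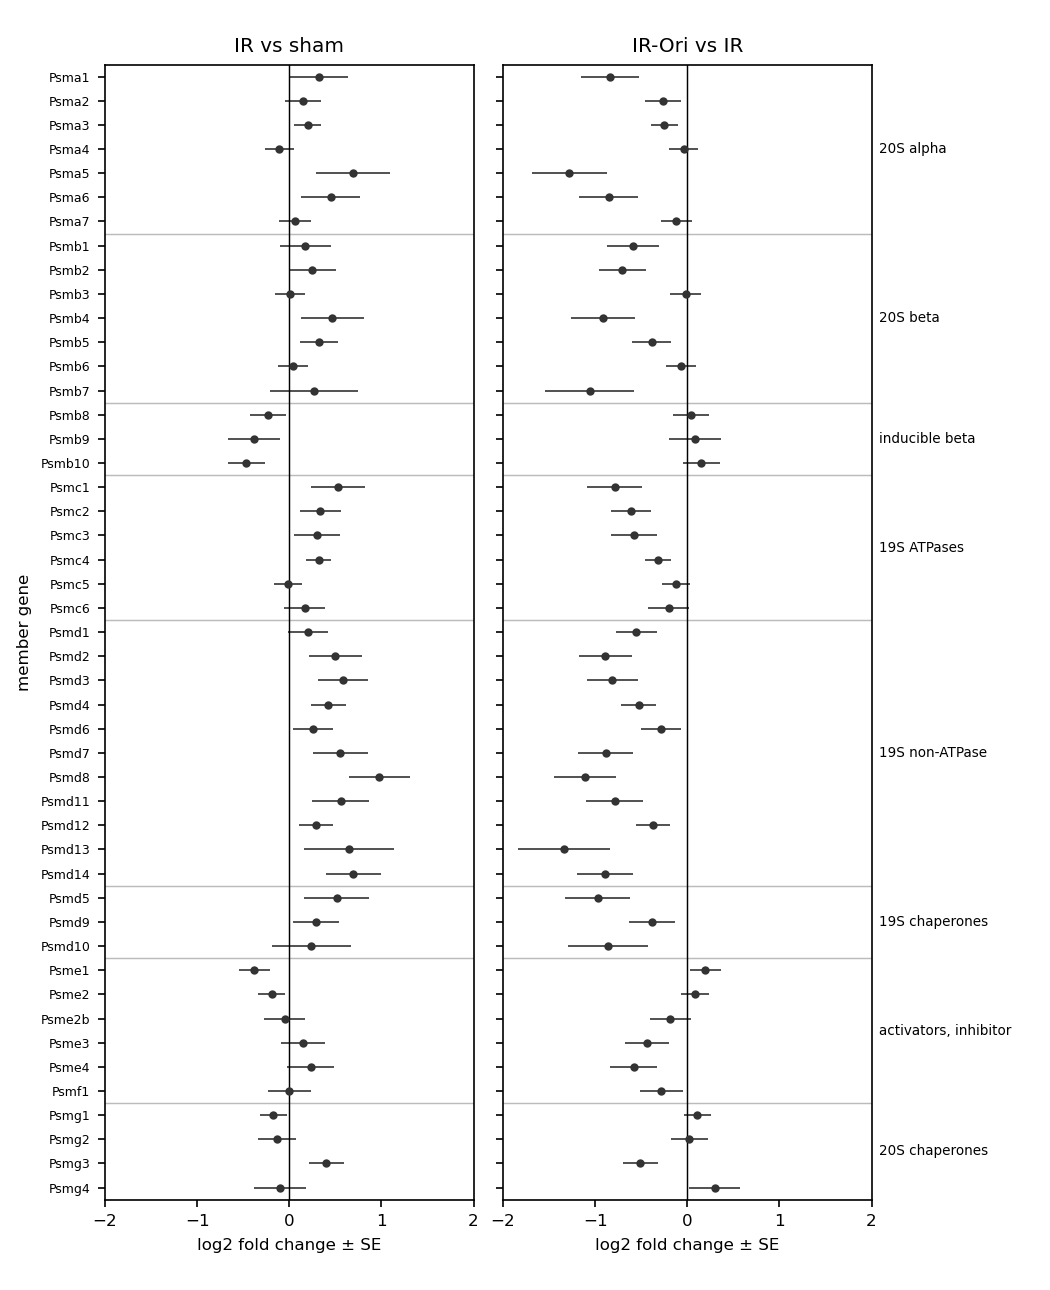
Log2 fold change and standard error (horizontal bars) from edgeR for the 47 tested proteasome genes, IR against sham on the left and IR-Ori against IR on the right, ordered by role. All 11 non-ATPase genes lie right of 0 on the left and left of 0 on the right, and both panels share the IR libraries, so their opposite signs are not independent.

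Psmd8, a lid subunit of the regulatory particle (ENSMUSG00000030591, GRCm39 chr7:28873613-28880126, minus strand), had the smallest p. Its level was 8.66 to 29.8 in sham (median 20.4), 19.5 to 61.3 in IR (median 35.6) and 11.1 to 27.2 in IR-Ori (median 18.2). The sham and IR ranges overlap, and IR 4, 5 and 6 stood at 46.8, 61.1 and 61.3, above every other library of the study. The log2 fold change was 0.98 ± 0.33 (SE, 6 libraries each, edgeR adjusted p = 0.0774) for IR against sham and -1.11 ± 0.33 (adjusted p = 0.0644) for IR-Ori against IR. It passed between IR and sham in the fit with the mitochondrial share as a covariate (0.84, edgeR adjusted p = 0.0107) and within libraries under 15% (1.07, adjusted p = 0.0236).

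Psmd14, the deubiquitinase that cuts ubiquitin chains from the substrate (ENSMUSG00000026914, chr2:61542038-61630720, plus strand), was at 6.15 to 21.4 in sham (median 16.3), 14.8 to 37.6 in IR (median 20.4) and 9.86 to 20.6 in IR-Ori (median 12.3). The ranges of IR and sham overlap, but IR 4, 5 and 6, at 23.6, 37.6 and 35.4, stood above every library of the other groups. The log2 fold changes were 0.70 ± 0.30 (edgeR adjusted p = 0.160) for IR against sham and -0.89 ± 0.30 (adjusted p = 0.0900) for IR-Ori against IR. With the mitochondrial share as a covariate the first was 0.61 (edgeR adjusted p = 0.0237).

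The scaffold subunit Psmd2, which docks ubiquitin receptors (ENSMUSG00000006998, chr16:20470402-20482164, plus strand), was at 15.5 to 31.7 (sham), 19.2 to 57.4 (IR) and 14.6 to 27.3 (IR-Ori). Psmd7, the partner of the deubiquitinase (ENSMUSG00000039067, chr8:108307013-108315096, minus strand), was at 15.5 to 32.7, 16.3 to 58.3 and 14.4 to 28.9. The lid subunit Psmd3 (ENSMUSG00000017221, chr11:98573380-98586805, plus strand) was at 5.99 to 13.8, 8.33 to 26.5 and 6.70 to 12.2. All 3 share one shape, with the highest values in IR, group ranges that overlap, and medians in IR of 27.2, 33.0 and 14.99 beside 24.9, 22.5 and 11.6 in sham. Their log2 fold changes for IR against sham were 0.50 ± 0.29, 0.56 ± 0.29 and 0.58 ± 0.27 (edgeR adjusted p = 0.307, 0.262 and 0.201), and each was below 0 (-0.20, -0.21 and -0.15) without IR 4, 5 and 6.

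Psma5, an alpha subunit of the gate ring (ENSMUSG00000068749, chr3:108164242-108187290, plus strand), was at 10.7 to 46.2 in sham (median 31.5), 24.9 to 95.6 in IR (median 46.1) and 11.7 to 43.6 in IR-Ori (median 15.6). IR 5 alone stood at 95.6, and 5 of the 6 IR-Ori libraries were at or below 27.1. The log2 fold changes were 0.69 ± 0.40 (edgeR adjusted p = 0.305) for IR against sham, which was -0.16 without IR 4, 5 and 6, and -1.28 ± 0.40 (adjusted p = 0.0761) for IR-Ori against IR.

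**Figure D3:**
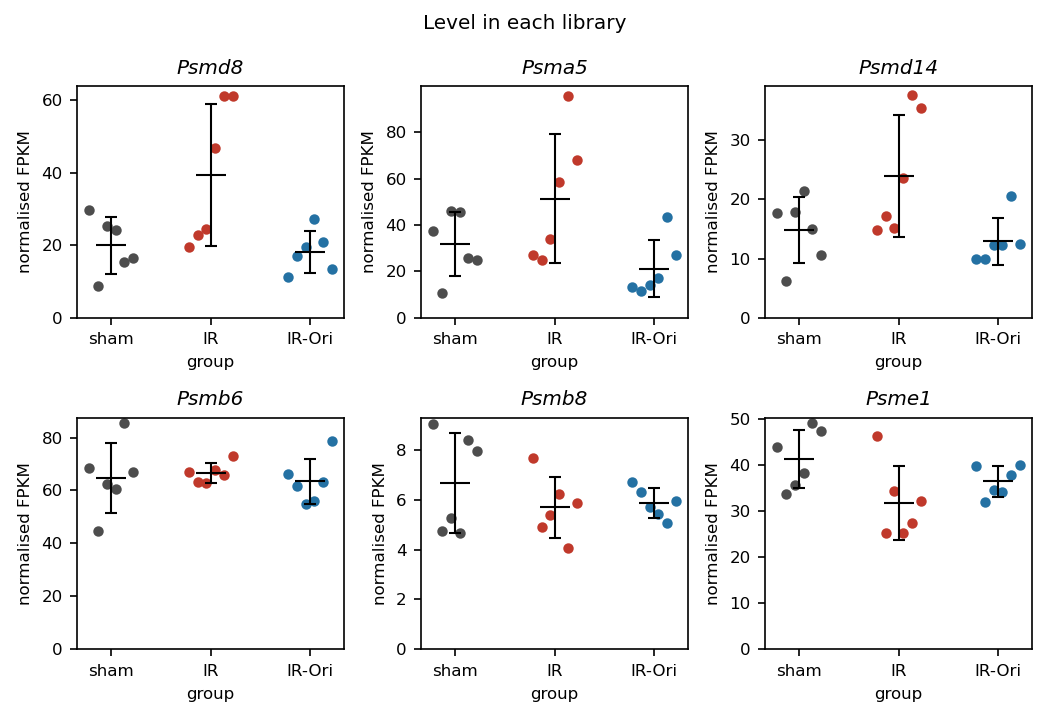
Level (normalised FPKM, axes from 0) of 6 proteasome genes in each library (points), with the group mean and SD (bars, n = 6 each). Psmd8, Psma5 and Psmd14 show 2 or 3 high IR libraries, Psmb6 is nearly level across groups, and Psmb8 and Psme1 have lower means in IR than in sham.

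The comparison of IR-Ori with IR asks what oridonin did in injured liver. Again 0 of 47 genes passed (edgeR, adjusted p under 0.05), where 0.596% of all genes tested were higher and 3.01% lower. At an unadjusted p under 0.05, 22 genes were lower and 0 higher, beside 14.4% and 9.81% of all genes. DESeq2 called 5 lower, Psma5, Psmd2, Psmd7, Psmd8 and Psmd14, and 0 higher, against 6.06% and 3.06% of all genes, and limma on log2(FPKM + 1) called 0, against 0.768% and 0.336%. The groups of no proteasome gene were free of overlap (1.27% of all genes downward, 0.644% upward).

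The log2 fold change was below 0 for 39 of the 47 genes, with a median of -0.44, beside 50% and a median near 0 over all genes. Here too the signs of these genes are not independent. Non-ATPase genes had the lowest median among the subunit classes, -0.81, with all 11 below 0 and 9 at an unadjusted p under 0.05. The constitutive beta genes (median -0.59), ATPase genes (-0.45) and alpha genes (-0.26) were also all below 0. The 3 chaperones of the base had a median of -0.86. The 3 inducible beta genes were above 0 (median 0.08), as were 3 of 4 core chaperone genes (median 0.07). The values lowest in this comparison were those of Psmd13, a lid subunit, at -1.34 ± 0.50 (edgeR adjusted p = 0.120), and Psma5.

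Single libraries moved these counts. Without IR-Ori 5, the IR-Ori library with a mitochondrial share under 15%, 8 genes were lower (edgeR; Psma1, Psma5, Psma6, Psmb2, Psmd2, Psmd7, Psmd10 and Psmd14; 4.4% of all genes). Without IR 1, which had a share of 42.9%, 6 were lower (Psma5, Psmd2, Psmd3, Psmd5, Psmd7 and Psmd8; 5.0%). Without IR 2 it was 2, Psma5 and Psmd8 (4.52%), and without IR 3 it was Psmd8 alone (4.36%). Leaving out any other single IR or IR-Ori library gave 0 calls. In those fits the 22 genes lower at an unadjusted p under 0.05 became 16 to 19. They became 23 to 26 without IR 1, IR 2, IR 3 or IR-Ori 5. Without IR 4, 5 and 6, 0 genes passed and 0 reached an unadjusted p under 0.05, with 42 of 48 below 0 and a median of -0.12 (all genes: 55.2% above 0, median 0.04). With the mitochondrial share as a covariate the median was -0.27 (all genes called: 0.404% higher, 1.58% lower). Within libraries under 15% (1 IR-Ori, 3 IR), where the lone library is assumed to vary like the others, it was -0.26 (0.0309% each way), and within those at or over 15% (5 and 3) -0.19 (0.0% and 0.101%). No proteasome gene passed edgeR in these 3 fits, with 16, 4 and 3 lower and 0 higher at an unadjusted p under 0.05.

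IR-Ori and sham differed in 0 of 14595 genes by edgeR (0.0% either way), so 0 of the 47 proteasome genes passed. At an unadjusted p under 0.05, 0 were higher and 0 lower, beside 6.34% and 3.66% of all genes, though 7 were lower without sham 2 and 7 without IR-Ori 5, and no group was free of overlap (0.178% and 0.0822% of all genes). DESeq2 (0.233% and 0.0274% of all genes) and limma called 0. The log2 fold change was below 0 for 46 of 47 genes (51.1% of all genes), with a median of -0.23, and these signs are not independent. Psmg4, a core chaperone, was the exception at 0.20 ± 0.28. The median was -0.08 with the mitochondrial share as a covariate, with 35 of 47 genes below 0. A p that misses the threshold does not show that the groups are alike.

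The mitochondrial share ran with these genes inside the groups. In the edgeR fit with groups and share together, 29 of 47 genes were lower where the share was larger (23.0% of all genes tested) and 1, Psmg4, was higher (19.9%). The steepest slopes, per 10 percentage points on the log2 scale, were -0.80 ± 0.08 for Psmd13 (SE, edgeR adjusted p = 2.9e-06), -0.74 ± 0.10 for Psmb7 (adjusted p = 2.46e-05), -0.56 ± 0.10 for Psmd10 and -0.55 ± 0.10 for Psma5. Lower levels went with a larger share in 10 of 11 non-ATPase genes, 5 of 7 alpha genes, 4 of 7 constitutive beta genes, 3 of 6 ATPase genes and all 3 chaperones of the base. None of the 3 inducible beta genes passed, with slopes of 0.07 to 0.21. Genes with a longer genomic span had steeper negative slopes (Spearman's rho = -0.42 over 47 genes, which are not independent). The part of the share in the differences between groups was not tested beyond the within-share values and the covariate.

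**Figure D4:**
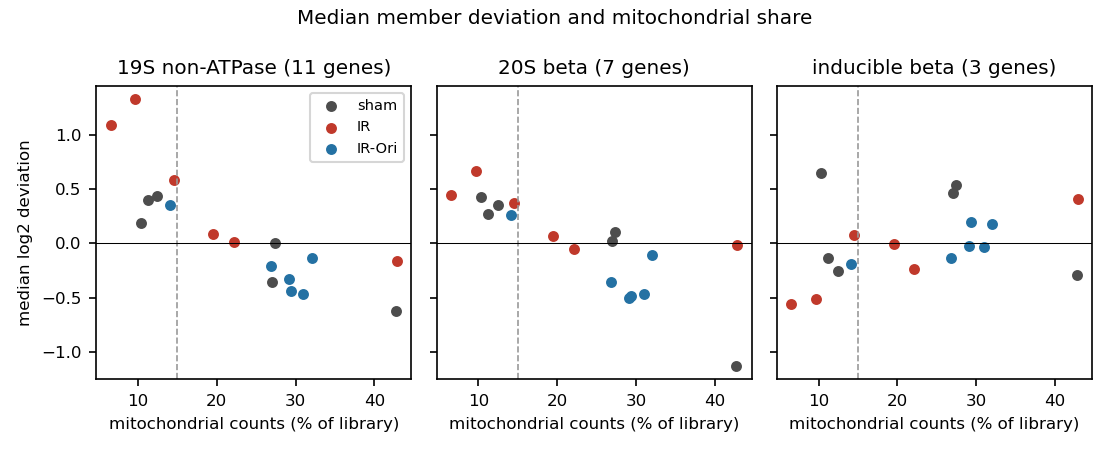
Median log2 deviation of the non-ATPase (11), constitutive beta (7) and inducible beta (3) genes in each library (points, coloured by group) against the mitochondrial share of the library's counts in percent. The dashed line marks 15%. The non-ATPase medians run from 1.32 in IR 5, at a share of 9.65%, to -0.63 in sham 2, at 42.8%, with IR 1, at 42.9%, apart at -0.17, while the inducible medians of IR 5 and IR 6 are -0.51 and -0.56.

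The catalytic subunits were compared as pairs, since each inducible subunit takes the place of one constitutive subunit, and a ratio within a library does not depend on the scaling. A ratio can still vary with the mitochondrial share, since the slopes of its 2 genes can differ. They were -0.74 for Psmb7 and 0.11 for Psmb10 per 10 percentage points on the log2 scale. Psmb5 (ENSMUSG00000022193, chr14:54851576-54855479, minus strand) was at 37.2 to 118 (sham), 94.4 to 118 (IR) and 62.1 to 97.8 (IR-Ori), and its inducible counterpart Psmb8 (ENSMUSG00000024338, chr17:34416695-34420428, plus strand) at 4.67 to 9.07, 4.06 to 7.69 and 5.07 to 6.74. The ratio of Psmb8 to Psmb5 was 0.0560 to 0.127 in sham (median 0.0800), 0.0364 to 0.0814 in IR (median 0.0523) and 0.0571 to 0.0918 in IR-Ori (median 0.0755). The IR median is the lowest, the ranges overlap, and IR 1, at 0.0814, lay above 3 sham and 5 IR-Ori libraries. The mean log2 ratio in IR was lower than in sham by a difference of -0.61 (two-sided exact permutation test, n = 6 each, p = 0.0281, adjusted over 9 tests 0.136) and higher in IR-Ori than in IR by 0.46 (exact permutation p = 0.0325, adjusted 0.136). Neither passed. Within libraries under 15% the difference between IR and sham was -0.55 (3 against 3, exact permutation p = 0.1, the smallest this design allows).

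Psmb6 (ENSMUSG00000018286, chr11:70416193-70418684, plus strand) was nearly level, at medians of 64.6, 66.3 and 62.5 in sham, IR and IR-Ori, and Psmb9 (ENSMUSG00000096727, chr17:34400961-34406738, minus strand) had medians of 2.22, 1.60 and 1.77. The difference in the mean log2 ratio of Psmb9 to Psmb6 was -0.46 for IR against sham (exact permutation p = 0.173, adjusted 0.370) and 0.25 for IR-Ori against IR (p = 0.387, adjusted 0.498; exact permutation). Psmb7 (ENSMUSG00000026750, chr2:38478048-38534099, minus strand) had medians of 20.1, 21.6 and 8.44, and Psmb10 (ENSMUSG00000031897, chr8:106662367-106665076, minus strand) 14.4, 11.2 and 11.6. Their ratio ran from 0.366 to 6.81 in sham, the widest of the 3 pairs. Psmb7 was at 2.67 in sham 2 and at 11.8 to 31.5 in the other sham libraries. The SD of the log2 ratio was also the largest of the 3 pairs in IR (1.11) and IR-Ori (0.79).

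The difference in the mean log2 ratio of Psmb10 to Psmb7 was -0.97 for IR against sham (exact permutation p = 0.242, adjusted 0.370) and 1.30 for IR-Ori against IR (p = 0.0455, adjusted 0.136; exact permutation). None of the 9 adjusted values passed, and the smallest p that 6 libraries against 6 allow is 0.002165. IR-Ori against sham gave -0.14, -0.21 and 0.33 for the pairs of Psmb8, Psmb9 and Psmb10 (exact permutation p = 0.522, 0.247 and 0.658). Without IR 1, the ratio of Psmb8 to Psmb5 passed in both comparisons with IR and that of Psmb10 to Psmb7 in IR-Ori against IR (exact permutation, adjusted p = 0.0390 each).

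**Figure D5:**
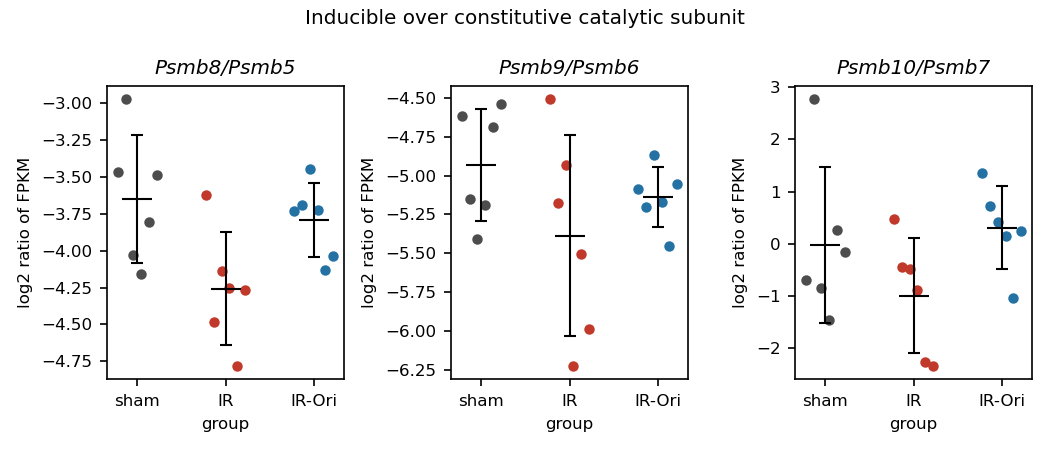
Log2 ratio of the FPKM of each inducible catalytic subunit to its constitutive counterpart in each library (points), with the group mean and SD (bars, n = 6 each). For Psmb8 over Psmb5 the IR mean, -4.26, lies below the sham mean, -3.65, and the IR-Ori mean, -3.79, with overlapping points. For Psmb10 over Psmb7, sham 2 is the highest sham library, at 2.77, and the other sham libraries run from -1.45 to 0.27.

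As single genes the inducible subunits and the interferon-linked activators shared a direction without passing. For IR against sham the log2 fold changes were -0.23 ± 0.20 for Psmb8, -0.38 ± 0.28 for Psmb9 and -0.47 ± 0.20 for Psmb10 (edgeR adjusted p = 0.509, 0.445 and 0.159). Psme1 (ENSMUSG00000022216, chr14:55815580-55818986, plus strand), which with Psme2 forms the activator ring that opens the core for peptides, was at 33.7 to 49.0 in sham (median 41.0), 25.1 to 46.3 in IR (median 29.7) and 31.9 to 40.0 in IR-Ori (median 36.2). Of the 6 IR libraries, 5 were at or below 34.3 and IR 1 was at 46.3. The log2 fold change of Psme1 was -0.38 ± 0.17 (edgeR adjusted p = 0.181), and without IR 1 it was -0.56 (adjusted p = 0.0305). Psme2 (ENSMUSG00000079197, chr14:55824898-55828570, minus strand) was at 25.1 to 37.9 (sham), 22.0 to 35.6 (IR) and 25.1 to 32.8 (IR-Ori), with -0.19 ± 0.15 for IR against sham (edgeR adjusted p = 0.477).

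The other activators gave no call either. Psme3, a nuclear activator (ENSMUSG00000078652, chr11:101207039-101214363, plus strand), was at 6.16 to 17.7 (sham), 10.9 to 19.4 (IR) and 6.94 to 14.7 (IR-Ori). The log2 fold change of Psme3 was 0.15 ± 0.24 for IR against sham and -0.44 ± 0.24 for IR-Ori against IR (edgeR adjusted p = 0.753 and 0.261). Psme4, a large single-chain activator known for its part in histone degradation (ENSMUSG00000040850, chr11:30721726-30830361, plus strand), was at 5.06 to 12.0, 5.67 to 12.7 and 5.09 to 8.54, with -0.58 ± 0.26 for IR-Ori against IR (edgeR adjusted p = 0.173). Psmf1, an inhibitor of the core particle in vitro, had medians of 3.57, 3.33 and 2.44.

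Genes of class I antigen processing and of the interferon response, which are known to be induced together with the inducible subunits, gave no call: 0 of 14 were higher or lower in IR against sham (edgeR; 1 and 2 at an unadjusted p under 0.05, DESeq2 0 and 0), with a median of -0.17. In IR-Ori against IR 0 of 14 passed (1 higher and 1 lower unadjusted, DESeq2 1 lower), with a median of 0.16. Irf1, a transcription factor of the interferon response, had log2 fold changes of -0.32 ± 0.29 and 0.29 ± 0.29 (edgeR adjusted p = 0.536 and 0.545).

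Leukocytes are known to express the inducible subunits. The summed level of 6 pan-leukocyte markers was 13.1 to 27.0 (sham), 23.4 to 42.8 (IR) and 14.2 to 26.6 (IR-Ori), and none was at 0 in all libraries. None of the 6 passed in IR against sham (edgeR; 4 higher at an unadjusted p under 0.05, DESeq2 3 higher), and 1, Laptm5, was lower in IR-Ori than in IR. All 8 neutrophil markers tested were higher in IR than in sham (edgeR), beside 5.52% of all genes. Their summed level was 3.79 to 29.3 in sham and 75.6 to 289 in IR. Of 6 monocyte and macrophage markers tested, 4 were higher in IR than in sham (edgeR, beside 5.52% of all genes). The summed level of the 8 listed overlapped between groups, at 73.0 to 147 (sham), 125 to 169 (IR) and 82.3 to 146 (IR-Ori). Spp1 is on this list and also on that of cholangiocyte markers. In IR-Ori against IR, 2 of the 8 neutrophil and 4 of the 6 monocyte and macrophage markers were lower (edgeR), beside 3.01% of all genes. The summed neutrophil level was 7.63 to 68.3 in IR-Ori. Of 8 Kupffer cell markers, edgeR called 0 in both comparisons, with medians of -0.03 and -0.005, and DESeq2 called 1 higher in IR-Ori against IR. B cell markers differed in sign: 0 of 5 tested were above 0 in IR against sham (median -1.35) and 4 of 5 above 0 in IR-Ori against IR (median 0.19). None of the 5 passed in either comparison (edgeR; 2 lower and 0 at an unadjusted p under 0.05, DESeq2 0 and 0), and their summed level was 2.86 to 8.95 (sham), 1.47 to 8.12 (IR) and 2.26 to 5.58 (IR-Ori). Both T and NK cell genes tested, of 8 listed, were below 0 in IR against sham and in IR-Ori against IR, and neither passed (edgeR and DESeq2, 0 at an unadjusted p under 0.05). The part of these cells in the levels of Psmb8, Psmb9 and Psmb10 was not tested.

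Cofactors of the proteasome outside the symbol rule were examined in the same fit. Of 11 tested, 2 were higher in IR than in sham, beside 5.52% of all genes. Both encode zinc finger proteins that bind the proteasome under stress. Zfand2a was at 1.70 to 3.03 (sham), 4.09 to 86.0 (IR) and 1.48 to 3.16 (IR-Ori), and rose by 3.89 ± 0.66 on the log2 scale (edgeR adjusted p = 0.00211). It was lower in IR-Ori than in IR, at -3.67 ± 0.65 (edgeR adjusted p = 0.00579), the 1 cofactor called there, beside 3.01% of all genes. Its IR values lay above all values of the other groups. Zfand5 rose by 1.56 ± 0.45 (edgeR adjusted p = 0.0397), with 7.13 to 76.2 in IR beside 5.94 to 8.54 in sham, and was at -1.58 ± 0.45 in IR-Ori against IR (edgeR adjusted p = 0.0544). The core assembly factor Pomp was at medians of 19.6, 21.5 and 9.33 in sham, IR and IR-Ori, with 0.14 ± 0.38 and -0.88 ± 0.39 (edgeR adjusted p = 0.867 and 0.172), and the proteasome-bound deubiquitinase Usp14 at 0.26 ± 0.25 and -0.45 ± 0.25 (edgeR adjusted p = 0.566 and 0.270).

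Of 12 genes tested around NRF1, the factor's own genes gave no call. Nfe2l1, which encodes NRF1, had medians of 20.8, 18.3 and 16.6 and log2 fold changes of 0.03 ± 0.23 and -0.35 ± 0.23 (edgeR adjusted p = 0.961 and 0.336). Nfe2l2, which encodes NRF2, had -0.18 ± 0.27 and 0.03 ± 0.27 (edgeR adjusted p = 0.738 and 0.952). The 2 genes called encode small Maf proteins, the dimer partners of both. Of all genes, 5.52% were higher in IR against sham and 3.01% lower in IR-Ori against IR. Mafk rose by 1.97 ± 0.36 (edgeR adjusted p = 0.00319) and Maff by 3.76 ± 0.90 (edgeR adjusted p = 0.0157), and in IR-Ori against IR they were at -1.65 ± 0.35 (edgeR adjusted p = 0.0158) and -4.41 ± 0.94 (edgeR adjusted p = 0.0152). Their IR ranges were wide, 6.67 to 43.4 for Mafk and 5.08 to 196 for Maff.

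Of 15 ubiquitin genes and substrate shuttles, 2 were higher in IR than in sham (5.52% of all genes). In IR-Ori against IR 3 were lower (3.01% of all genes). The ubiquitin gene Ubb was at 69.9 to 229 (sham), 135 to 807 (IR) and 88.7 to 194 (IR-Ori). Ubb had a log2 fold change of 1.11 ± 0.38 for IR against sham (edgeR adjusted p = 0.0779) and passed in IR-Ori against IR at -1.45 ± 0.38 (edgeR adjusted p = 0.0394). The autophagy receptor Sqstm1 rose by 1.896 ± 0.43 (edgeR adjusted p = 0.0118) and was at -1.95 ± 0.43 in IR-Ori against IR (edgeR adjusted p = 0.0184). The co-chaperone Bag3, which routes proteins to autophagy, rose by 2.35 ± 0.47 (edgeR adjusted p = 0.00568) and was at -2.07 ± 0.47 (edgeR adjusted p = 0.0208).

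Some counts cannot be assigned to one gene. Whether counting used strand is not given in the sources used here. Of the 49 genes, 23 overlap another gene, and 18 overlap a gene on the opposite strand. On the opposite strand, Psmd9 overlaps the far more abundant Hpd by 10921 bases (mean level of Hpd 715). Psmb7 overlaps Nek6 by 6571 bases and Psmd13 overlaps Sirt3 by 342 bases there. On the same strand, which a strand setting would not separate, Psmd13 overlaps Gm15542 by 1194 bases (mean level of Gm15542 7.34). Psma2 overlaps AW209491 by 8943 bases on its own strand (mean level of AW209491 4.31). Psme2b is a near-identical copy of Psme2, and how reads divide between both is uncertain. The processed copy Psma5-ps was at 0.259 to 8.47 beside 10.7 to 95.6 for Psma5. Psmb8 and Psmb9 lie 9956 bases apart on chromosome 17, and Psme1 and Psme2 lie 5911 bases apart on chromosome 14, each pair on opposite strands.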

How the data were processed

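Gene counts and FPKM of 18 libraries were read from 1 deposited table. Per the submitters' processing notes, cutadapt 1.9.1, HISAT2 2.2.1, build GRCm39 and DESeq2 (no version) were used, while no source used here names the counting tool, its strand setting or the annotation release. The authors deposited whole-number counts per gene with no scaling. The FPKM deposited by the authors equal those counts divided by exonic gene size and library total, within 0.005.

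The test of the counts was that of edgeR 4.0.16, run in R 4.3.3 (minimum count 10, minimum total 15, TMM, quasi-likelihood, 1 group factor, 15 residual degrees of freedom). Two-sided p-values were adjusted by Benjamini-Hochberg over 14595 genes within a comparison, at a threshold of 0.05. DESeq2 1.42.0 and limma 3.58.1 (on genes reaching an FPKM of 1 in 6 or more libraries) were alternatives, with other scalings, filters, covariates and left-out libraries. Scripts were tested on simulated data. Within groups no libraries repeated one another: the lowest chi-square per gene was 16.0. Libraries of different groups were not compared in this way. The biological coefficient of variation was 0.398.

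Catalytic ratios were compared on log2 deposited FPKM by exact permutation (924 splits), adjusted over 9 tests. The members and lists were chosen with earlier results of these data known. The named genes were the 6 with the smallest p, the 3 catalytic pairs, Psme1 to Psme4, the genes failing the filter, the called genes of each other list (at most 4), and Nfe2l1, Nfe2l2, Pomp, Usp14, Ubb and Irf1, and 1 further gene that is not reported here. Further members, such as Psmd13, Psmg4 and Psmf1, were named after their values were seen. The list gene Paaf1 was not matched in the table.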

Additional observations from a re-analysis of the deposited data

Results flagged for a closer look

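In 5 of 57 groups of 6 libraries examined, the highest library lay far from the next, by more of the group's range than Dixon's critical value for 6 samples allows. For normally distributed values chance gives about 1 in 20 such groups. The gene levels were not on a log scale and the genes included those with the smallest p, so that rate is only a guide. All 5 were IR-Ori groups, and the high library was IR-Ori 5 each time, so they are not independent. The gap took 0.628 of the range for Psmd2 (level 27.3, next 19.3), 0.702 for Psmd7 (28.9, next 18.7) and 0.766 for Psmd14 (20.6, next 12.4). It took 0.658 for Psmb7 (25.8, next 12.4) and 0.694 for Psme4 (8.54, next 6.15). The mitochondrial share of IR-Ori 5 was 14.1%, and that of the other 5 IR-Ori libraries 26.8 to 32.0%. The part of this share in the gaps was not tested.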

How the results depend on the processing

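Counts of called proteasome genes moved with the tool and the libraries. For IR against sham, 0 higher became 2 with DESeq2, 2 with the mitochondrial share as a covariate and 1 in libraries under 15%. Leaving out single libraries gave 0 to 1 higher and 0 to 1 lower. For IR-Ori against IR, 0 lower became 5 with DESeq2 and 0 to 8 when single libraries were left out. The replicate block called 0 genes in each comparison, with medians of 0.23, -0.45 and -0.23 for IR against sham, IR-Ori against IR and IR-Ori against sham, and changed no call. The replicate numbers did not meet the rule for pairing, a correlation over 0.1 in every pair (correlations of -0.44 to 0.33 for sham and IR, 0.0137 to 0.42 for IR and IR-Ori, -0.36 to 0.30 for sham and IR-Ori). As a hint from the data, 5 of 6 IR libraries correlated more with the IR-Ori library of their own number than with any other, against 0 of 6 for the other pairs of groups. Leaving out single libraries moved the log2 ratio of Psmb8 to Psmb5 over -0.73 to -0.47 (IR against sham) and 0.36 to 0.59 (IR-Ori against IR), and that of Psmb10 to Psmb7 over 1.03 to 1.59 (IR-Ori against IR). The ratio of Psmb10 to Psmb7 for IR-Ori against sham was -0.041 under 15%, where it rests on 1 IR-Ori library against 3 sham, so the change of sign has no spread behind it. Of the values of single genes under alternatives, 42 reversed, 23 newly passed and 1119 kept direction and side of the threshold. No single proteasome gene had passed to begin with. With IR 4, 5 and 6 left out, an alternative chosen after seeing the data, IR against sham reversed for Psma5 (-0.16), Psmd2 (-0.20), Psmd7 (-0.21), Psmd3 (-0.15), Psmb6 (-0.017), Psmb9 (0.0033), Psmb7 (-0.50), Psme3 (-0.18) and Psme4 (-0.32). IR-Ori against IR reversed there for Psmb8 (-0.020), Psmb9 (-0.30), Psmb10 (-0.0095) and Psme2 (-0.025). At or over 15%, reversals were Psmb6 (-0.047) for IR against sham, Psmb6 (0.0051), Psmb9 (-0.22), Psmb10 (-0.0062) and Psme2 (-0.045) for IR-Ori against IR, and Psmd8 (0.40), Psmd14 (0.115), Psmd3 (0.019) and Psme4 (0.079) for IR-Ori against sham. Under 15% they were Psmb8 (-0.059) for IR-Ori against IR, and Psma5 (0.019) and Psmd14 (0.118) for IR-Ori against sham. With the covariate they were Psmb8 (-0.0069) and Psmb9 (-0.035) for IR-Ori against IR, and Psmd8 (0.22), Psmd14 (0.081), Psmd3 (0.0057) and Psmb5 (0.030) for IR-Ori against sham. With limma, Psmb5 reversed for IR-Ori against sham (0.014 and 0.016 at pseudocounts of 1 and 0.1). Leaving out single libraries spanned 0 for IR against sham in Psmb6 (-0.094 to 0.087), Psmb7 (-0.019 to 0.43) and Psme3 (-0.046 to 0.25), for IR-Ori against IR in Psmb8 (-0.038 to 0.18) and Psmb9 (-0.031 to 0.32), and for IR-Ori against sham in Psmb5 (-0.24 to 0.024) and Psmb6 (-0.14 to 0.041). The cause of these changes was not tested.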
